A study of Rattus norvegicus with 52 samples.

Results

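Gene expression in rat dorsal root ganglia 6 h after a dorsal root lesion (DR6h) was set against the control pool of that lesion, CON(DR). The groups were taken by the channel titles, which gave 4 DR6h channels and 3 CON(DR) channels, 7 of the 52 hybridisation channels of the series. The channel titles hold abbreviations alone; knowledge of the study gives dorsal root lesion for DR and sciatic nerve lesion for SN. Each group was total RNA of the L4, L5 and L6 ganglia, pooled from 3 animals, hybridised on two-colour oligonucleotide arrays in a loop of arrays. DR6h channels 1 and 2 were labelled with Cy5 and channels 3 and 4 with Cy3, against Cy5 for CON(DR) channels 1 and 2 and Cy3 for channel 3. Strain, sex, age, and whether the controls had a sham operation were not given in the labels. The channels of a group are repeat hybridisations of 1 pool, so the p-values cover the spread of repeat hybridisations alone, and the lesion cannot be told apart from the animals in the pool. For comparison, 3 SN6h channels (6 h after the other lesion), 3 CON(SN) channels and 5 DR12h channels (12 h after the dorsal root lesion) were used.

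Dorsal root ganglia hold the cell bodies of the sensory neurons that report touch, pain and muscle stretch. Each neuron sends 1 axon branch to skin and muscle through the peripheral nerve and another through the dorsal root into the spinal cord. Injury of the peripheral branch is known for a strong programme of injury transcription factors such as Atf3 and Jun and of growth genes such as Gap43, and injury of the central branch for a weaker one. Around the neurons lie satellite glia, Schwann cells, vessels and resident macrophages and mast cells.

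Probes differ in brightness by design, so the level of a marker is given for its own probe and is not set against that of another. The neurofilament Nefl averaged 53690 in DR6h channels and 47420 in CON(DR) channels, the sensory neuron sodium channel Scn10a 3762 and 4307, and the myelin gene Pmp22 50450 and 37240. The astrocyte water channel Aqp4 averaged 61.8 in DR6h channels and 52.7 in CON(DR) channels, the oligodendrocyte gene Mog 138.5 and 125.3, beside channel medians of 120 to 123. The neuropeptide gene Calca, a marker of the sensory neurons, was at 69.5 in DR6h channels and 87.3 in CON(DR) channels. By the call rule below, 0 of 18 measured sensory neuron markers, 0 of 8 myelinating Schwann cell markers and 0 of 11 spinal cord markers differed. The summed intensities of the sensory neuron markers were 206113 to 228314 in DR6h channels and 202719 to 232867 in CON(DR) channels. Those of the spinal cord markers were 1605 to 2349 in DR6h channels and 2103 to 3705 in CON(DR) channels. For the myelinating Schwann cell markers they were 60324 to 68881 in DR6h channels and 38462 to 57256 in CON(DR) channels. For markers of satellite glia and immature Schwann cells they were 22262 to 25734 and 15797 to 17441. The sums of these glial lists did not overlap between the groups, and the cause was not tested. Most of the myelinating Schwann cell sum came from Pmp22, which was not called. Such separation was not particular to glia. Of the gene lists described below, the sums of immediate early factors (higher in DR6h) and of ribosomal protein and apoptosis genes (lower) did not overlap either.

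CON(DR) channel 3 stood apart from the other control channels, with a score of 24.6 on the leading principal component, which held 22.9% of the variance, against -5.3 and 2.0. The DR6h channels lay at -1.9 and -2.1 for Cy5 and at -18.7 and -14 for Cy3. Counts and values that rest on CON(DR) channel 3 are also given without it. It is the only Cy3 channel of CON(DR), so without it the Cy3 channels of DR6h have no control of their own dye. Values below are normalised intensities by channel, or log2 differences of DR6h minus CON(DR) ± SE from limma on all channels with dye as a term (the channel fit). A probe was called, and is said to have risen or fallen, at a Benjamini-Hochberg adjusted p below 0.05 over all 8455 probes with at least 1.5-fold change. A second estimate, called within arrays, used the Cy5 minus Cy3 difference of each array. The channels were joined into 26 arrays by their values and by coefficients that the authors deposited. This estimate is thus not independent of the authors' deposited table. No array held DR6h beside CON(DR), so the within-array estimate reaches the control through other groups, while the channel fit compares the group means directly and takes the spread and the dye term from all channels.

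Among the named genes, the largest rises in the DR6h pool were of a chemokine, stress factors and 2 genes of transmitter release. Ccl2, Snap25, Atf3, Rab3a and Gadd45g rose most among the named genes, by 2.64 to 3.80-fold, and Ptprv, Igfbp5, S100a4 and the mast cell protease Mcpt8 were among the largest falls that the authors' deposited table shared, by 1.87 to 2.43-fold. limma called 346 of 8455 probes (4.09%): 243 of them, or 2.87% of all, had risen and 103, or 1.22%, had fallen. The within-array fit called 387 (4.58%), with 152 rises (1.8%) and 235 falls (2.78%), so that falls outnumbered rises there. With the array as a block 448 were called (5.3%), 219 higher and 229 lower. After removal of the dye term the channels of the groups did not overlap for 1458 probes (17.2%), of which 324 were called (3.83%). Both fits shared 157 calls of like sign, 111 higher and 46 lower, which named 96 and 37 genes. Without CON(DR) channel 3 the count was 194, 96 higher and 98 lower, and 98 probes were called in all 3 ways, 63 higher and 35 lower. With pool means set against the 2 control pools 0 probes were called (561 at an unadjusted p below 0.05). The coefficient in the authors' deposited table had the same sign for 317 of the 346 called probes. It had the other sign or too small a fold for the rule that chose the named genes for 147 of the 283 called genes.

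**Figure D1:**
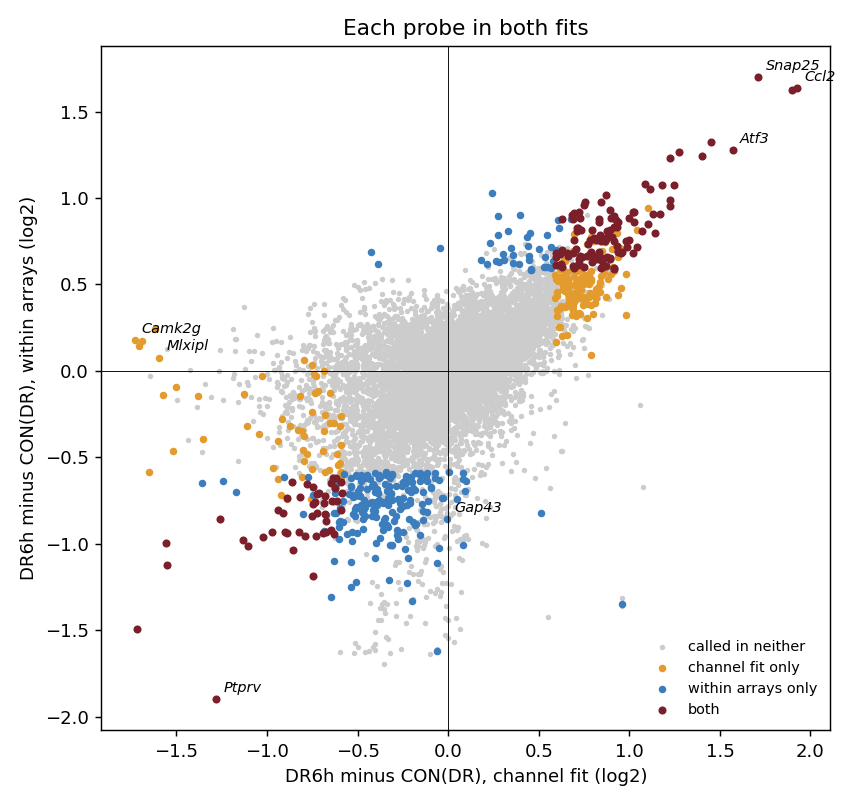
Each point is 1 probe, with the log2 difference of DR6h minus CON(DR) from the channel fit on the x axis and from the within-array fit on the y axis; colour gives the fit that called it. The 157 probes called in both lie to the upper right and lower left, with Ccl2, Snap25 and Atf3 at the upper end, while Camk2g and Mlxipl lie far left near 0 on the y axis.

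The 12 largest rises with support in the authors' deposited table were all called within arrays, at 0.80 to 1.70. The deposited coefficients come from the same arrays, so choosing genes by them favours a call within arrays, and over all probes 157 of the 346 calls were shared. Ccl2, a chemokine that attracts monocytes, stood at 614, 703, 740 and 769 in the DR6h channels against 195, 173 and 175 in the CON(DR) channels. All DR6h channels lay above all control channels, and the difference was 1.93 ± 0.20 (3.80-fold, adjusted p = 1.52e-08; within arrays 1.64). Atf3, a stress-induced transcription factor that marks injured sensory neurons, stood at 349, 647, 386 and 413 in DR6h channels against 145, 150 and 146 in CON(DR) channels. The control channels were nearly alike and the DR6h channels spread widely above them, for a rise of 1.57 ± 0.21 (2.97-fold, adjusted p = 3.59e-06; within arrays 1.27). Gadd45g, a stress-response gene of growth arrest and DNA damage, stood at 1113, 1506, 1004 and 1103 in DR6h channels against 411, 512 and 409 in CON(DR) channels. Its channels did not overlap either, and it rose by 1.40 ± 0.17 (adjusted p = 3.52e-07; within arrays 1.24).

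Snap25, a core protein of the complex that fuses synaptic vesicles, stood at 6273, 5546, 4717 and 5574 in DR6h channels against 1629, 1527 and 1861 in CON(DR) channels. It was the brightest of the 12 and rose by 1.71 ± 0.18 (3.28-fold, adjusted p = 3.5e-08; within arrays 1.70). Rab3a, the vesicle GTPase that regulates release, stood at 499, 292, 294 and 294 in DR6h channels against 138, 118 and 109 in CON(DR) channels. Its first DR6h channel stood apart above the other 3, and the rise was 1.45 ± 0.20 (adjusted p = 7.92e-06), or 1.24 without that channel. The neuronal calcium sensor Vsnl1 rose by 1.22 ± 0.20 (within arrays 0.99), and the phospholipase Plcb4, which acts downstream of G proteins, by 1.22 ± 0.24 (within arrays 1.23).

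The other 5 rises came from unrelated families. Bglap (osteocalcin), a secreted bone matrix protein, stood at 164, 191, 169 and 178 in DR6h channels against 88, 72 and 63 in CON(DR) channels, a rise of 1.246 ± 0.16. The fatty acid elongase Elovl6 rose by 1.18 ± 0.20 and the interferon-induced GTPase Mx2 by 1.14 ± 0.22, at 504 to 822 in DR6h channels and 231 to 370 in CON(DR) channels. The sulfotransferase Sult1a1 (1.22 ± 0.24) and the stress-activated kinase Rps6ka5 (1.17 ± 0.26) were called with all channels. Without CON(DR) channel 3 these last values were 0.83 and 0.97, with adjusted p of 0.0657 and 0.0633, and the other 10 rises were called.

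**Figure D2:**
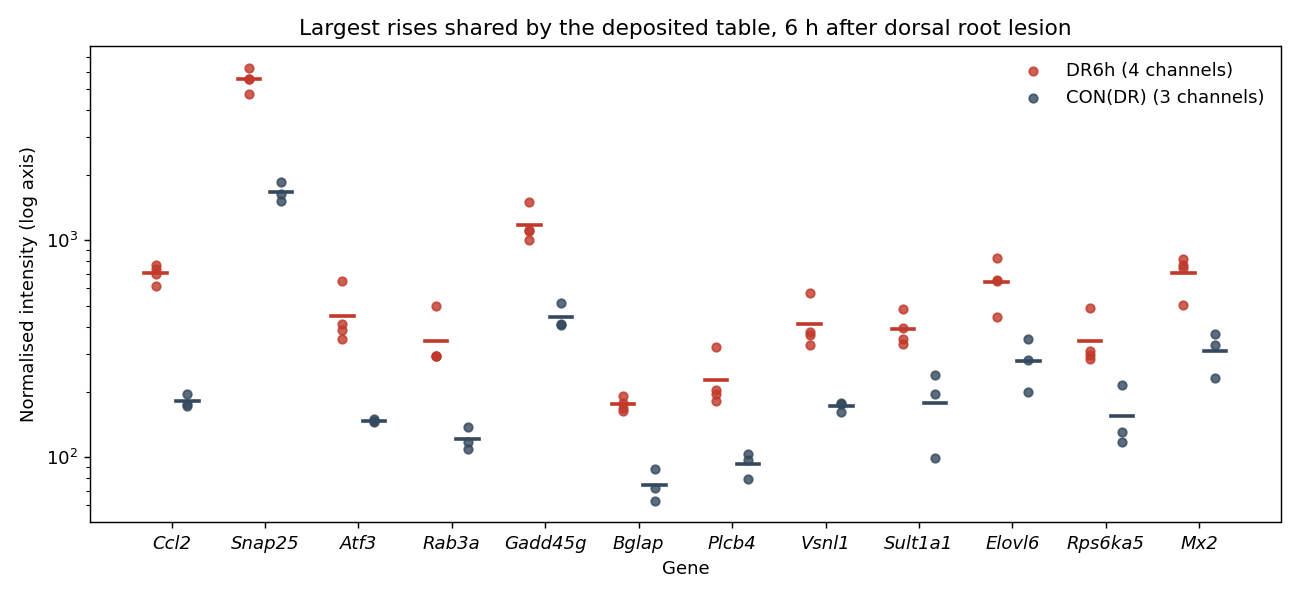
Normalised intensity (log axis) of the 12 largest rises with support in the authors' deposited table and no channel overlap, with 1 point per channel and a bar at the group mean; the 4 DR6h channels stand left of the 3 CON(DR) channels for each gene. No gene has a DR6h channel below a CON(DR) channel, and the widest gaps are those of Ccl2 and Snap25.

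Among the 10 largest falls with support in the authors' deposited table, a within-array call was made for 9, and 7 were called without CON(DR) channel 3. Falls without that support, some of them larger, are given after these. Ptprv, a receptor-type tyrosine phosphatase, stood at 253, 256, 265 and 204 in DR6h channels against 779, 894 and 325 in CON(DR) channels. The DR6h channels lay close together, and the third control channel lay nearer to them than to the other controls. The fall was -1.28 ± 0.25 (adjusted p = 0.0015), -1.90 within arrays and -1.67 without CON(DR) channel 3. Igfbp5, a binding protein of insulin-like growth factors, stood at 452, 460, 579 and 536 in DR6h channels against 1711, 863 and 896 in CON(DR) channels. It fell by 1.11 ± 0.21, and the growth factor itself, Igf1, fell by 0.65 ± 0.14 (within arrays -0.65). S100a4, a calcium-binding protein of motile cells and fibroblasts, stood at 3410, 2112, 2106 and 2136 in DR6h channels against 5806, 4651 and 3505 in CON(DR) channels. It fell by 0.90 ± 0.14 (adjusted p = 0.000117; within arrays -0.93), with its first DR6h channel just under the lowest control.

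The collagen chaperone Serpinh1 fell by 0.94 ± 0.21, the water channel Aqp1 by 0.89 ± 0.17 and the kinase Map3k10 by 0.97 ± 0.19. For Serpinh1 the adjusted p was 0.0547 without CON(DR) channel 1. Ins2 stood at 3683, 4235, 4122 and 2973 in DR6h channels against 7967, 10056 and 16117 in CON(DR) channels. Its probe could share signal with its near copy Ins1, and its fall (-1.55 ± 0.48, within arrays -1.12) lost its call on leaving out any 1 of the 7 channels, at -1.78 to -1.24. The nuclear receptor Nr5a2 was at -1.13 ± 0.27 and the LIM protein Fhl2 at -0.92 ± 0.28. Without CON(DR) channel 3 their adjusted p were 0.0746 and 0.383, and within arrays Fhl2 was at -0.28 and not called.

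**Figure D3:**
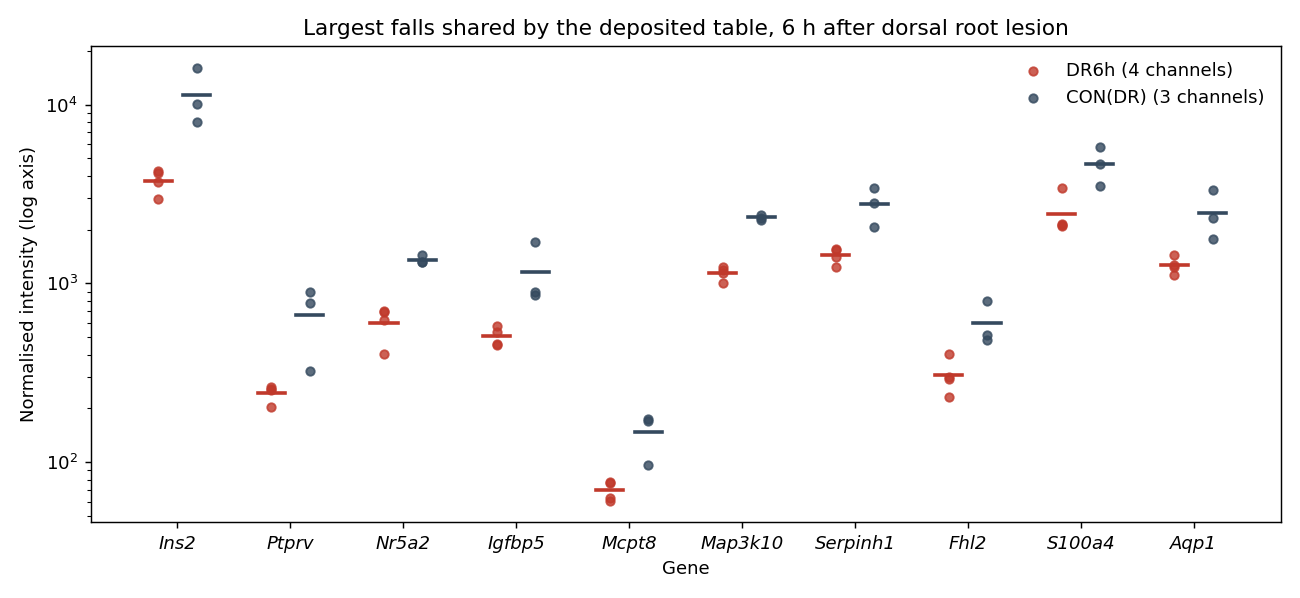
Normalised intensity (log axis) of the 10 largest falls with support in the authors' deposited table and no channel overlap, with 1 point per channel and a bar at the group mean; the 4 DR6h channels stand left of the 3 CON(DR) channels. Ptprv has 1 control channel at 325 near its DR6h channels and the widest spread among its controls, while the controls of Map3k10 lie close together.

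Camk2g, Shb, Mlxipl and Dnajb9 had called falls that the authors' deposited table did not show. Camk2g, a calcium- and calmodulin-dependent kinase, stood at 3077, 3646, 840 and 513 in DR6h channels against 5021, 7946 and 4014 in CON(DR) channels. Its Cy3 channels were far below its Cy5 channels in DR6h, and the channel fit gave -1.73 ± 0.50. The adaptor Shb was at -1.62, the glucose-sensing transcription factor Mlxipl at -1.59 and the co-chaperone Dnajb9 at -1.501. Within arrays these 4 lay between -0.09 and 0.24, in the authors' deposited table between -0.16 and 0.03, and none was called without CON(DR) channel 3. The same probes were lower in CON(DR) than in CON(SN) by 1.36 to 1.83, which was not called (smallest adjusted p = 0.175).

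The 39 gene lists, ordered here by role, held 738 measured genes, and 29 lists had a called member. Every list count below is to be read against all probes, of which 2.87% rose and 1.22% fell in the channel fit. A single called member is not read as a result about its list. Of the 73 called genes named here, 25 were called whichever of the 7 channels was left out, 21 of them also within arrays, and 41 without CON(DR) channel 3. Called whichever channel was left out were, of the list members described below, Jun, Cd44, Ngfr, Tap2, Kcnab1, Map1b, Glul, Gpi and Dusp5, besides those already described. The rest of these 73 lost their call without at least 1 channel, and list members outside the 73 were not examined in this way. Among 26 immediate early and delayed early factors 3 rose, Atf3, Jun and Egr1. Jun, an AP-1 transcription factor, stood at 310, 457, 380 and 401 in DR6h channels against 162, 180 and 196 in CON(DR) channels, a rise of 1.10 ± 0.25. It was at 0.94 within arrays (adjusted p = 0.0726, not called) and at 0.10 in the authors' deposited table. Egr1, a zinc finger factor induced by activity and growth factors, rose by 0.79 ± 0.21, with 280 to 365 in DR6h channels and 144 to 271 in CON(DR) channels. It was not called within arrays (0.52) or without CON(DR) channel 3 (0.52, adjusted p = 0.268). The median of the list was 0.11 against -0.02 for all probes. Fos and Per1 have no probe that carries their symbol here. The Egr1 promoter is shown because its CArG boxes, known to bind serum response factor, are a textbook feature of this gene. The RefSeq window (GRCr8, chr18:26736828-26737127, + strand, 300 bases, 5′ to 3′) holds 2 matches, in capitals, which begin 105 and 83 bases before the start:
Egr1: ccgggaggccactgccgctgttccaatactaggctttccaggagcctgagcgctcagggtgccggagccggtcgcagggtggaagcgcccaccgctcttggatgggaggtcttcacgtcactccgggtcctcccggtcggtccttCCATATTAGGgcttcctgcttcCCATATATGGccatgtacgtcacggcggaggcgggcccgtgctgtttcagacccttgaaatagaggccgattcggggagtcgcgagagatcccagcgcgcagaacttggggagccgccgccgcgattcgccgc
A CArG box was in 1.64% of all RefSeq windows of this length and in 1.33% of those of measured genes. It was in 0 of the 69 windows of genes that rose in both fits.

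Of 20 other injury-associated transcription factors 3 rose. The axon growth factor Klf7 rose by 0.84 ± 0.25 and the sensory neuron subtype factor Runx1 by 0.70 ± 0.16, both also within arrays (0.97 and 0.59). Hif1a, the hypoxia factor, was called in the channel fit alone (0.83 ± 0.22; within arrays 0.49). Without CON(DR) channel 3, Klf7 was at 0.79 (adjusted p = 0.141) and Hif1a at 0.72 (adjusted p = 0.129), and Runx1 was called.

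Of 32 growth-associated effectors 3 rose and 0 fell, with a list median of 0.05. The hyaluronan receptor Cd44 stood at 597, 664, 740 and 844 in DR6h channels against 277, 404 and 438 in CON(DR) channels. It rose by 0.89 ± 0.17 (within arrays 0.93, and 0.62 in the authors' deposited table). The adhesion molecule L1cam rose by 0.69 ± 0.21 with overlapping channels (within arrays 0.88), and the growth cone protein Basp1 by 0.63 ± 0.17, without a call within arrays (0.52). Gap43, the classic growth cone protein, stood at 3606, 3199, 2912 and 2817 in DR6h channels against 5195, 6147 and 1035 in CON(DR) channels. CON(DR) channel 3 was far below the other 2, and the channel fit gave -0.01 ± 0.88. Within arrays Gap43 fell by 0.86 ± 0.13 (adjusted p = 0.00333), and the authors' deposited table gives -0.46. The lectin Reg3b was at 0.45 ± 0.27 and not called, with 101 to 148 in DR6h channels and 52 to 151 in CON(DR) channels.

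Among 25 neuropeptides and granins 1 rose. Vgf, a secreted neuropeptide precursor, stood at 1435, 1710, 1508 and 1503 in DR6h channels against 582, 865 and 1301 in CON(DR) channels. The control channels spread more than the DR6h channels, and the rise was 0.76 ± 0.20 (within arrays 0.98). The call was lost without CON(DR) channel 1 or DR6h channel 1 or 2. Neuropeptide Y (Npy) was at -0.26 ± 0.43, from 93 to 188 in DR6h channels and 109 to 262 in CON(DR) channels. Galanin (Gal) was at 0.19 ± 0.62, from 367 to 522 in DR6h channels and 244 to 547 in CON(DR) channels. Neither was called in either fit. The Vgf promoter is shown because Vgf rose in both fits and its window holds the cAMP response element TGACGTCA, which reads alike on both strands, 90 bases before the start (in capitals; RefSeq, GRCr8, chr12:25276971-25277270, - strand, 5′ to 3′):
Vgf: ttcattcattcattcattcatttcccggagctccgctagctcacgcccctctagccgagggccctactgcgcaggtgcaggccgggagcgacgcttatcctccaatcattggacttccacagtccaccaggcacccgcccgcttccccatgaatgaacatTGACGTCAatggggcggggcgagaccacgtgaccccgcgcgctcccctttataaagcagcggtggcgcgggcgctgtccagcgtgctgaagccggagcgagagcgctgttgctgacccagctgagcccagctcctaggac
The element was in 3 of 69 windows (4.35%) of genes that rose in both fits, those of Vgf, Dguok and Golph3. It was in 0 of 32 windows of genes that fell in both, in 2.7% of those of measured genes and in 1.91% of all windows. The AP-1 motif TGANTCA, searched on both strands, was in 5.8% of the windows of genes that rose in both fits, against 5.59% for measured genes.

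Of 27 genes of synaptic vesicles and release 6 rose and 0 fell in the channel fit, where 2.87% of all probes rose, 3 of them also within arrays (Snap25, Rab3a and Vsnl1) and 3 without CON(DR) channel 3. The list median was 0.25, against -0.02 for all probes, and 0.08 within arrays. Outside the naming rule, and chosen after their values were seen, the vesicle glycoprotein Sv2b (1.04 ± 0.32), the synapsin Syn2 (0.93 ± 0.25) and the complexin Cplx2 (0.69 ± 0.21) passed in the channel fit alone. The summed intensity of the list was 18698 to 24553 in DR6h channels and 12063 to 14393 in CON(DR) channels. These sums do not overlap, which also held for lists as unlike as ribosomal protein and apoptosis genes. Snap25 alone averaged 5528 ± 636.4 in DR6h channels (SD, n = 4) and 1672 ± 171.2 in CON(DR) channels (SD, n = 3).

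Of 30 potassium channel genes 3 rose, all in both fits, where 2.87% of all probes rose in the channel fit and 1.8% within arrays. Kcnab1, an auxiliary subunit that speeds inactivation, stood at 423, 383, 263 and 277 in DR6h channels against 195, 138 and 146 in CON(DR) channels, a rise of 1.07 ± 0.21. The transient-current pore subunit Kcnd1 rose by 0.78 ± 0.19 and its partner Kcnip1 by 0.69 ± 0.18. Kcnip1 was at 0.46 without CON(DR) channel 3 (adjusted p = 0.246), and the authors' deposited table gives 0.19 to 0.28 for these 3. Of 20 sodium, calcium and HCN channel genes 1 rose, the calcium channel subunit Cacnb3 (0.87 ± 0.20, within arrays 1.02). Of 23 amino acid transmitter receptors 1 rose, the kainate receptor subunit Grik4 (0.63 ± 0.14, within arrays 0.70). Of 26 nociceptor receptors and transducers 1 rose, the acid-sensing channel Asic2 (1.03 ± 0.25, within arrays 0.92; 0.86 with an adjusted p of 0.101 without CON(DR) channel 3). The heat and capsaicin receptor Trpv1 was at -0.25 in the channel fit and fell within arrays (-0.78, adjusted p = 0.00414).

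Of 33 genes of kinase cascades, their feedback and phosphatases 4 rose and 1, Camk2g, fell. The ERK phosphatase Dusp5 stood at 452, 466, 359 and 333 in DR6h channels against 304, 233 and 162 in CON(DR) channels, a rise of 0.86 ± 0.17 without a call within arrays (0.57, just under 1.5-fold). The kinases Sgk1 (0.82 ± 0.19), Camk1 (0.84 ± 0.24) and Pim3 (0.79 ± 0.16) rose in both fits. Without CON(DR) channel 3 Camk1 was at 0.74 (adjusted p = 0.149) and Sgk1 at 0.60 (adjusted p = 0.131). Sgk1 and the glutamine synthetase Glul were also the 2 of 14 glucocorticoid-responsive genes that rose. A further gene of that list, the steroid receptor chaperone Fkbp5, stood at 243, 197, 240 and 262 in DR6h channels against 144, 161 and 151 in CON(DR) channels. It was not called, since its 0.58 ± 0.14 (adjusted p = 0.0146) was just under the fold limit.

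Of 30 neurofilaments, tubulins, actins and their regulators 4 rose in the channel fit and none of the 4 within arrays. They were the microtubule proteins Map1b (0.98 ± 0.20; within arrays 0.56) and Map2 (0.79 ± 0.22; 0.09), the filament Ina (0.70 ± 0.19; 0.45) and Gfap (0.64 ± 0.19; 0.37). Map1b stood at 300, 279, 507 and 540 in DR6h channels against 188, 190 and 201 in CON(DR) channels, with both Cy3 channels of DR6h above both Cy5 channels.

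Among 13 measured markers of satellite glia and immature Schwann cells 4 rose, 2 of them in both fits, and the list median was 0.41 (0.29 within arrays and 0.21 without CON(DR) channel 3). Glul, which satellite glia use to clear glutamate, stood at 4289, 4763, 2604 and 2718 in DR6h channels against 2421, 1551 and 1833 in CON(DR) channels, a rise of 0.90 ± 0.19. The low-affinity neurotrophin receptor Ngfr, which neurons express too, rose by 0.98 ± 0.19 (within arrays 0.75). The cadherin Cdh19 (0.70 ± 0.20) and the filament Gfap rose in the channel fit alone. Fabp7, another satellite glia gene, ran the other way, at -0.58 ± 0.16 (fell within arrays, by 0.59). Of 8 myelinating Schwann cell markers 0 were called, with a median of 0.35 (0.05 within arrays and 0.22 without CON(DR) channel 3).

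**Figure D4:**
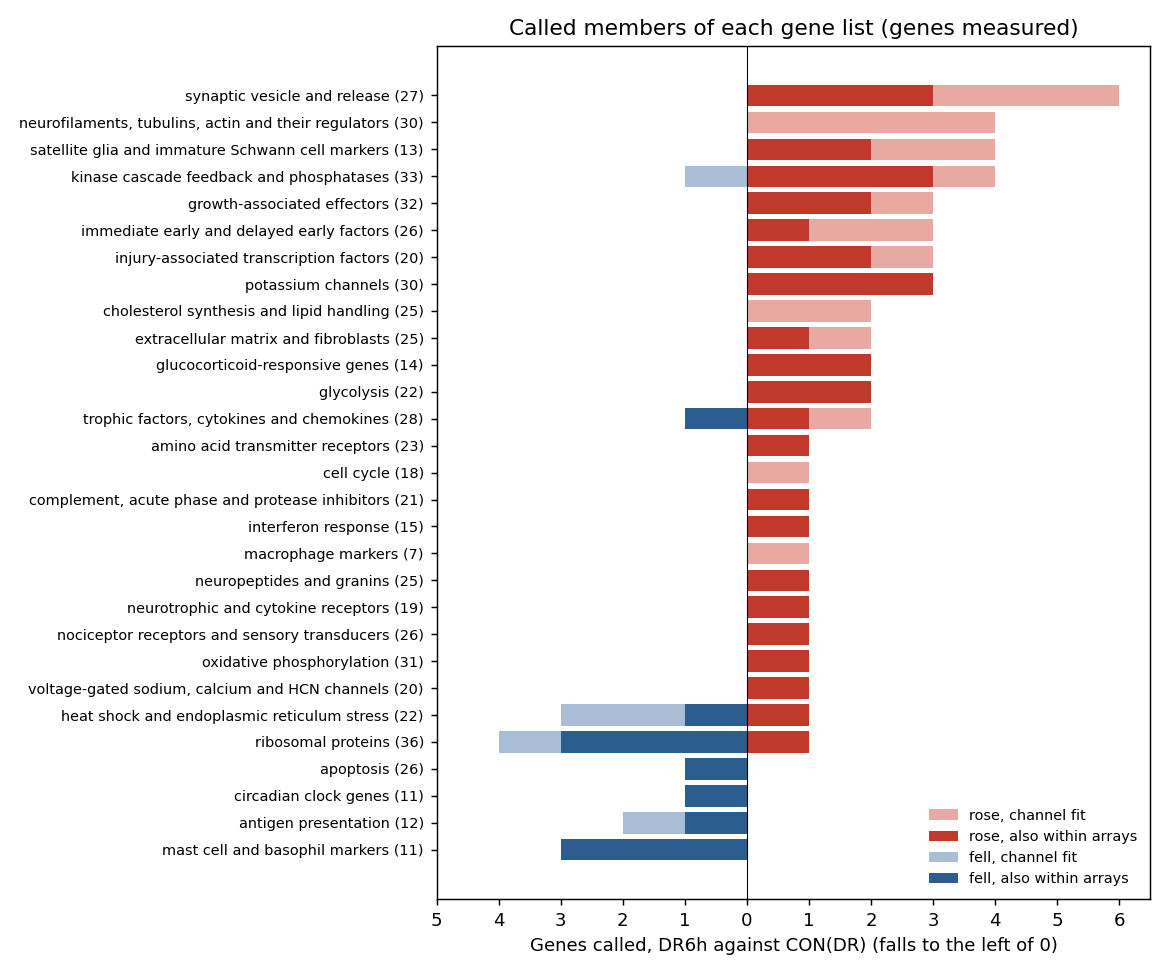
Bars give the number of genes of each list that rose (right of 0) or fell (left of 0) in the channel fit, and the dark part those also called within arrays; the number of measured genes follows each name. The list of synaptic vesicle genes reaches 6, with 3 in both fits, and the mast cell list has 3 falls, all in both fits.

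Of 11 measured mast cell and basophil markers 3 fell and 0 rose, and those 3 passed in both fits. Over all probes 1.22% fell in the channel fit and 2.78% within arrays. The list median was -0.24 in the channel fit. Within arrays it was -0.008 against -0.006 for all probes, so there the list as a whole did not follow these 3. Mcpt8 stood at 77, 78, 63 and 61 in DR6h channels against 174, 170 and 96 in CON(DR) channels, a fall of 1.02 ± 0.19 (-1.30 without CON(DR) channel 3). Mcpt9 stood at 82, 78, 102 and 96 in DR6h channels against 172, 164 and 161 in CON(DR) channels, a fall of 0.89 ± 0.23. Mcpt10 stood at 71, 68, 61 and 81 in DR6h channels against 119, 140 and 94 in CON(DR) channels, a fall of 0.75 ± 0.19. All 3 encode granule serine proteases, their groups did not overlap, and the authors' deposited table gives -0.82 to -0.75 for Mcpt10 and Mcpt9 and -0.89 for Mcpt8. Without CON(DR) channel 3 Mcpt9 was at -0.90 (adjusted p = 0.0677). Mcpt8, Mcpt9 and Mcpt10 were also lower in SN6h than in CON(SN), at -0.60, -0.47 and -0.78. Their difference between the lesions was not called. In these bulk samples fewer cells of a type and less RNA per cell cannot be told apart. All their DR6h values lie below the channel medians. The list's summed intensity was 749 to 856 in DR6h channels and 1056 to 1159 in CON(DR) channels. The promoter windows of Mcpt8 and Mcpt9 are shown because they are near copies. Whether signal from one gene reaches the probe of the other was not tested, as no probe or transcript sequences were compared. Aligned, their RefSeq windows (GRCr8, + strand, chr15:33769399-33769698 and chr15:33827180-33827479, 5′ to 3′) share 283 of 300 bases (94.3%), with 16 gap positions, and capitals mark the 9 mismatches:
Mcpt8: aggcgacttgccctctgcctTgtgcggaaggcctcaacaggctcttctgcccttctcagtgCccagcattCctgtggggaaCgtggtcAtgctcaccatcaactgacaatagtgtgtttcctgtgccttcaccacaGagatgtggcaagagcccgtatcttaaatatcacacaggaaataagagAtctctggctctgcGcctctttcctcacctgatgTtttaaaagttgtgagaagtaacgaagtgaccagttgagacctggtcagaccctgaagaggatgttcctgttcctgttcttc
Mcpt9: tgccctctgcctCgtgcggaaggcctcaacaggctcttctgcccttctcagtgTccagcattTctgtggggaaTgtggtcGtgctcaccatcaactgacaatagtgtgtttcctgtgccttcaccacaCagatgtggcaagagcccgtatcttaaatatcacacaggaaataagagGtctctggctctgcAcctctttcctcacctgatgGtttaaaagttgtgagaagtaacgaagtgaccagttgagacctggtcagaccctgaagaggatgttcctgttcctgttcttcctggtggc
Mcpt10 has no window in the table used here.

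In the other immune lists, called members are to be read against the 4.09% of all probes called. Of 28 trophic factors, cytokines and chemokines 2 rose (Ccl2 and the neurotrophic cytokine Cntf, 0.65 ± 0.18, not within arrays) and Igf1 fell. Of 15 interferon response genes Mx2 alone rose, and of 21 complement, acute phase and inhibitor genes complement factor B (Cfb) alone rose, by 0.72 ± 0.17. Of 12 antigen presentation genes 2 fell, the class II gene RT1-Db1 (-0.72 ± 0.19, within arrays -0.71) and the peptide transporter Tap2 (-0.69 ± 0.16, not within arrays). Of 7 macrophage markers the protease Ctss rose in the channel fit (0.64 ± 0.19), with 0.02 in the authors' deposited table. Aif1, the other macrophage marker with a call, was at -0.61 ± 0.20 on its brighter probe and fell within arrays by 0.90. A dimmer Aif1 probe was called in both fits (-0.63 and -0.94). Of 9 neutrophil granule markers 0 were called in the channel fit, and within arrays S100a8, S100a9 and Camp fell by 0.97, 0.64 and 0.61. The neutrophil list's summed intensity was 1221 to 1457 in DR6h channels and 1678 to 1763 in CON(DR) channels. Its part in the other falls was not tested.

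Of 36 ribosomal protein genes 4 fell and 1 rose, with 30 of 36 below 0 and a list median of -0.19. Rpl27 stood at 6320, 5502, 4116 and 4328 in DR6h channels against 12043, 10682 and 5767 in CON(DR) channels, a fall of 0.82 ± 0.19. Rps19 fell by 0.75 ± 0.21 (within arrays -1.18), while Rps27 rose by 0.71 ± 0.19 (within arrays 0.71). Heat shock and endoplasmic reticulum stress genes had 3 falls and 1 rise among 22 measured. The mitochondrial co-chaperone Hspe1 fell in both fits (-0.64 ± 0.18, within arrays -0.92) and Hspa4 in the channel fit alone (-0.62 ± 0.18). Dnajb9, described above, also fell in the channel fit, and the small heat shock protein Cryab rose by 0.59 ± 0.16.

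In metabolism, 2 of 22 glycolysis genes rose in both fits, Gpi by 0.92 ± 0.16 and Gapdh by 0.62 ± 0.16. Of 31 oxidative phosphorylation genes the cytochrome oxidase subunit Cox7b rose, by 0.77 ± 0.17. The desaturase Scd2 (0.73 ± 0.19) and the cholesterol exporter Abca1 (0.81 ± 0.23), 2 of 25 lipid genes, passed in the channel fit alone. Of 25 extracellular matrix genes the collagens Col1a2 (0.70 ± 0.20, within arrays 0.92) and Col5a2 (0.80 ± 0.23, not within arrays) rose. Without DR6h channel 1, which stood apart at 819, Col1a2 was at 0.42 (adjusted p = 0.205). The circadian output factor Dbp, 1 of 11 clock genes, fell by 0.86 ± 0.20, with 471 to 786 in DR6h channels and 668 to 1757 in CON(DR) channels. The mitophagy receptor Bnip3l fell by 0.75 ± 0.16 and by 0.67 within arrays, while the authors' deposited table gives 0.12. The cell cycle inhibitor Cdkn1b rose in the channel fit alone (0.94 ± 0.28; within arrays 0.44).

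The change after the DR lesion was then set against that after the SN lesion at the same time, each against its own control. limma called 191 of 8455 probes (2.26%), 167 with the higher change in DR6h (1.98%) and 24 with the lower (0.284%). The within-array fit called 99 (1.17%), of which 50 were higher and 49 lower, and the array block 453 (5.36%). Called in both the channel and the within-array fit were 50 probes. The count was 106 without CON(DR) channel 3, 106 without SN6h channel 3 and 94 without CON(SN) channel 2. Snap25 changed by 1.71 in DR6h and -0.16 in SN6h, a difference of 1.88 ± 0.27 (adjusted p = 5.23e-05; within arrays 1.82). Rab3a differed by 1.82 ± 0.29, with -0.36 in SN6h, and Ccl2 by 1.63 ± 0.29, with 0.30 in SN6h. Both were also called within arrays (1.77 and 1.37). Atf3 changed by 1.57 in DR6h and 0.07 in SN6h, a difference of 1.496 ± 0.31 that was not called within arrays (1.10, adjusted p = 0.144).

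Most named genes were chosen for a called DR6h difference, which is part of the comparison of the lesions and rests on the same channels. A called difference between the lesions is therefore favoured among them. Of the genes named here 24 had a called difference between the lesions, 13 also within arrays and 13 whichever single channel was left out, with 10 in both groups. Those 10 were Ccl2, Snap25, Rab3a, Bglap, S100a4, Cd44, Kcnab1, Glul, Gpi and Scd2. In Cd44, Kcnab1, Glul and Scd2 the values ran in opposite directions, at 0.73 to 1.07 in DR6h and -1.05 to -0.50 in SN6h. The SE of these SN6h values were 0.18 to 0.23. In the same genes CON(DR) minus CON(SN) was -0.56 to -0.31, not called by limma (smallest adjusted p = 0.27). The part of this offset between the controls in the opposite directions was not tested. SN6h channel 3 stood apart on the leading principal component, at 33.2 against 2.5 and 3.9 for SN6h channels 1 and 2. Bglap was at 1.246 in DR6h and -0.17 in SN6h, and S100a4 at -0.90 and 0.14. The 2 loops of arrays were separate. The control pools differed in 2 probes (0.0237%), both lower in CON(DR): the kidney slit-diaphragm gene Nphs1 (-1.88, adjusted p = 0.0346) and a probe unnamed here. With the array block 44 probes differed (0.52%).

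At the next time, 12 h, few probes differed from 6 h. DR12h was compared with DR6h directly, and 2 inferred arrays held both. limma called 18 probes (0.213%), 9 higher and 9 lower in DR12h, against 47 (0.556%) within arrays, with 14 in common, and 71 (0.84%) with the array block. Bglap was lower in DR12h by 0.91 ± 0.14 (adjusted p = 0.000575), Sult1a1 by 1.13 ± 0.21 and Mx2 by 1.00 ± 0.19. Igfbp5 was higher by 1.16 ± 0.18 (adjusted p = 0.000575). Against CON(DR) these 4 lay at 0.06 to 0.34 at 12 h. Without DR6h channel 1 the count was 6 and without DR6h channel 3 it was 33, and Bglap, Sult1a1 and Igfbp5 were called whichever channel was left out.

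All DR times share the 3 CON(DR) channels, so values at other times do not test the 6 h difference. Set side by side, Snap25 lay at 1.61 to 2.27 above CON(DR) at all 7 DR times and Elovl6 at 1.05 to 1.24. Atf3 was at 1.57, 2.25 and 2.83 at 6, 12 and 24 h and at 1.04 at 14 d. Ccl2 was at 1.93, 1.98 and 1.30 at the same 3 times and at 0.71 at 14 d. Ptprv lay at -1.73 to -1.16 at all 7 times. Mx2 was at 0.14 at 12 h, then at 0.81, 0.49 and 0.67 at 24, 48 and 72 h and at 1.40 and 1.19 at 7 and 14 d. Igfbp5 was at -1.11 at 6 h, 0.06 at 12 h, 0.99 at 24 h and -0.32 at 14 d. Against the other control pool, CON(DR) was lower in Snap25 by 0.06 (adjusted p = 0.955). For the 12 largest rises with support in the authors' deposited table, CON(DR) minus CON(SN) was -0.47 to 0.26, and none was called. The call rule passed only 2 of 8455 probes between the control pools, so the lack of a call carries little weight.

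**Figure D5:**
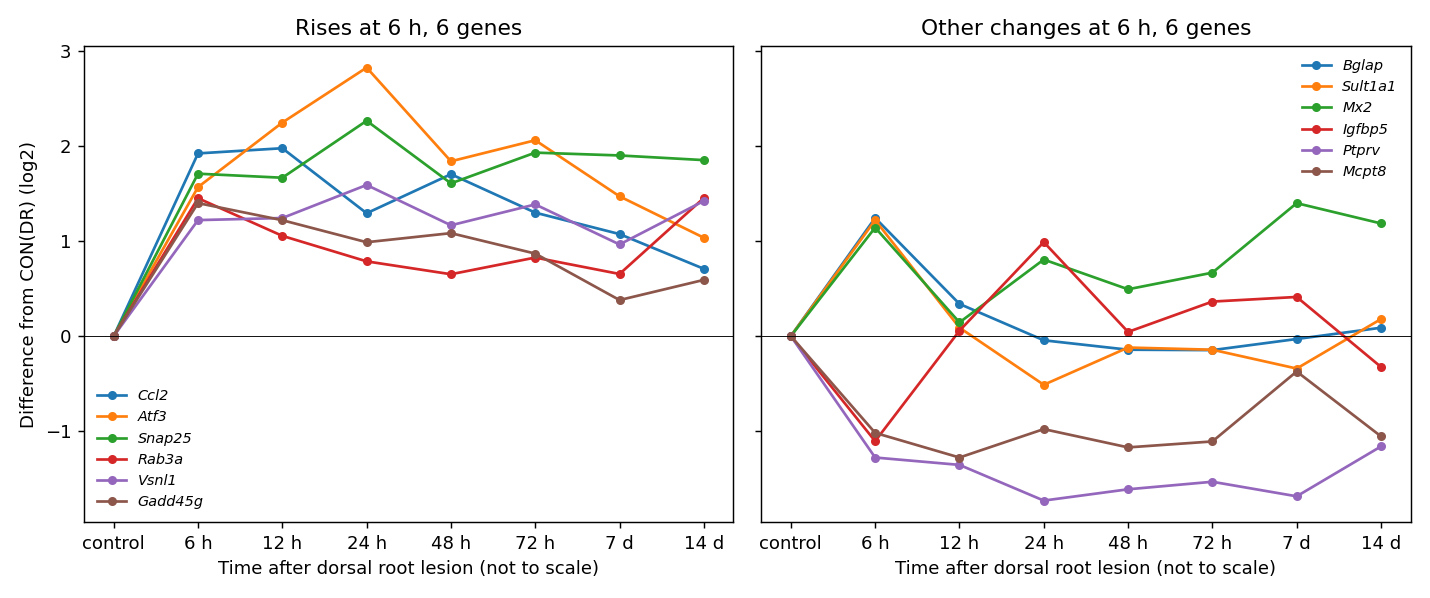
Log2 difference from CON(DR) at each time after the dorsal root lesion (the x axis is not to scale), with 1 line per gene: 6 rises on the left, and on the right Bglap, Sult1a1, Mx2, Igfbp5, Ptprv and Mcpt8. Bglap, Sult1a1, Mx2 and Igfbp5 lie at 0.06 to 0.34 at 12 h, while Snap25 lies at 1.61 to 2.27 throughout. Mx2 is higher again later, at 1.40 at 7 d, and Igfbp5 is at 0.99 at 24 h.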

How the data were processed

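Channel values are intensity values that the authors deposited on a linear scale, and had normalised before deposit; how is not given in the sources used here. They were turned into log2 with no pseudocount, filter or further normalisation. The rule for the groups speaks of log2 values; the deposited values are linear. The authors also deposited log2 coefficients against their time zero with standard errors (read as a score), for which the submitters' processing notes name limma without a version. The channel fit was limma 3.58.1 in R 4.3.3, with group and dye as terms over 52 channels in 16 groups, and Benjamini-Hochberg adjustment over 8455 probes.

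Which channels shared an array is not given in the sources used here. Channels were joined into 26 arrays (14 DR) by their values and the deposited coefficients. Each Cy5 channel went with the Cy3 channel whose difference, allowing for dye, lay nearest to that of the deposited coefficients. All joins were mutual best matches, and the layout gave the relative standard errors of the deposited table. Yet for DR6h the deposited coefficients, across probes, correlated with the within-array values only at r = 0.555, against 0.943 for SN6h. At the other DR times r was 0.647 to 0.698. The slope of deposited on within-array values was 0.318 for DR6h and 0.93 for SN6h. What this does to the 1.25-fold rule for the deposited coefficients was not tested. Since the joins used these coefficients, the correlations are partly built in. Probes are not independent replicates.

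The annotation gave 1 symbol to 6907 probes and several to 168, and did not list 1380. Symbols were updated by gene identifier for 6885. The brightest probe stood for its gene. Promoters came from RefSeq (GRCr8), with windows for 4971 measured genes.

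Named genes were, among called probes without channel overlap and with a deposited coefficient of the same sign past 1.25-fold, the 12 largest rises and 10 largest falls; the 4 largest called differences that the deposited coefficient did not share; up to 3 called members of each of 39 lists; and 10 measured genes known from injury or stress, whatever their values. The comparison, lists and rule were chosen with earlier results of these data known. The fits were tested on simulated data with independent noise in each channel. In the real data limma estimated a correlation of 0.774 between the channels of an inferred array. The channel fit leaves this correlation out, and the simulated data could not test its effect. The alternatives tried were no dye term, fewer channels, each dye alone, quantile normalisation, dim probes left out, an added 50, the replicate number as a block, pool means, both controls averaged, within arrays, the array as a block (added after the data were seen, as were both array fits for the other comparisons) and each channel left out. The number of arrays limits the precision.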

Additional observations from a re-analysis of the deposited data

Results flagged for a closer look

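Of 78 named genes examined for a channel standing apart from the other 3 of DR6h, 6 had one, where chance gives about 5%, or 1 in 20 groups. In DR6h channel 1, Rab3a was at 499 (others 292 to 294), Rps6ka5 at 489 (283 to 310), S100a4 at 3410 (2106 to 2136) and Col1a2 at 819 (382 to 430). In DR6h channel 2, Igf1 was at 309 (348 to 356) and Camk1 at 255 (178 to 189). Without the channel concerned, Rab3a, Rps6ka5, S100a4 and Igf1 were called at 1.24, 0.97, -1.05 and -0.62, while Col1a2 (0.42, adjusted p = 0.205) and Camk1 (0.72, adjusted p = 0.121) were not.

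The change in DR6h differed from the change in SN6h, by the limma interaction, in 24 named genes. The choice of most named genes by their DR6h difference favours such calls. Among the largest rises the difference on the log2 scale was 1.63 for Ccl2, 1.88 for Snap25, 1.496 for Atf3, 1.82 for Rab3a, 1.42 for Bglap, 1.21 for Vsnl1 and 1.15 for Elovl6. Among the largest falls shared by the authors' deposited table it was -1.43 for Ptprv and -1.04 for S100a4. Among transcription and growth genes it was 1.74 for Hif1a, 0.95 for Runx1 and 1.504 for Cd44. Neuronal and glial genes gave 1.56 for Kcnab1, 0.99 for Kcnip1, 1.46 for Map1b and 1.52 for Glul. Metabolic and kinase genes gave 1.15 for Gpi, 1.78 for Scd2, 1.23 for Sgk1 and 0.96 for Dusp5. The change was lower in DR6h for RT1-Db1 (-1.08), Rpl27 (-1.03), Hspe1 (-0.94) and Hspa4 (-1.05). Calls were lost on leaving out single channels for 11 of the 24, and most often for Hspe1 (11 of 13 single channels) and Rpl27 (10 of 13).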

How the results depend on the processing

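For DR6h against CON(DR), the 346 calls became 142 with only the DR and CON(DR) channels, 84 with only the 7 channels compared, 14 with Cy5 channels alone, 470 with Cy3 channels alone (315 higher and 155 lower) and 0 with pool means against the 2 control pools. On leaving out single channels the count was 194 to 387. For the DR6h change against the SN6h change, the 191 calls became 66 with only the channels compared, 99 within arrays and 453 with the array as a block, and 94 to 218 on leaving out single channels. For DR12h against DR6h, the 18 calls became 2 with only the channels compared, 47 within arrays and 71 with the array block, and 6 to 33 on leaving out single channels. For CON(DR) against CON(SN), the 2 calls became 0 with no dye term (1097 at an unadjusted p below 0.05), 4 with only the channels compared and 44 with the array block, and 0 to 2 on leaving out single channels.

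The share of higher calls was 70.2% for DR6h against CON(DR), 39.3% within arrays and 48.9% with the array block, and 79.7% after quantile normalisation. Replicate numbers did not pair the channels (r = -0.048, 0.176 and -0.207 for equal numbers). With the replicate block 269 probes were called for DR6h against CON(DR), 152 for the difference between lesions, 22 for DR12h and 2 for the control pools, and 16 of 78 named genes lost their call. Among the 73 called named genes, the direction turned within arrays for Camk2g (0.18), Shb (0.24) and Mlxipl (0.0774). It turned in the authors' deposited table for Mlxipl (0.0291) and Bnip3l (0.12). Of the 5 uncalled ones, Gap43 turned with Cy3 channels alone (1.47), and Gal was at -0.22 within arrays and 0.19 in the channel fit; further turns of uncalled genes near 0 are not listed. The cause was not tested. Leaving out CON(DR) channel 1, 2 or 3 took the call from 27, 19 or 32 of the 73 called genes, and leaving out DR6h channel 1, 2, 3 or 4 from 20, 21, 7 or 15.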

Other observations

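Within arrays, 32 genes were called higher and 152 lower that the channel fit did not call. Among ribosomal protein genes 7 of 36 fell within arrays, among them Rps29 (-0.76), Rpl21 (-0.77) and Rps16 (-0.65). The chaperones Hspd1 (-0.81) and Herpud1 (-0.91), the proteasome subunit Psma1 (-0.86), the growth-associated Stmn1 (-0.89) and the prohormone convertase Pcsk2 (-1.11) fell there too. In the channel fit these 8 genes lay at -0.54 to -0.18 and were not called. They were chosen after their values were seen.

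Outside the naming rule, and chosen after their values were seen, the neutrophil defensins Np4 and RatNP-3b were lower in DR12h than in DR6h, by 1.21 ± 0.20 and 1.09 ± 0.22. Higher in DR12h were both probes of the macrophage gene Aif1 (0.85 ± 0.18 and 0.74 ± 0.15), the protease inhibitor A2m (0.64 ± 0.14), the interferon-induced Ifitm3 (0.68 ± 0.13) and the satellite glia gene Fabp7 (0.64 ± 0.14). Within arrays 6 of these 7 probes were called in the same direction, and the dimmer Aif1 probe was at 0.58, just under 1.5-fold.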
